A study of Mus musculus with 10 samples.

Results

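Cortical interneuron identity and peptide genes were examined in the cortex of mice that carry a Chd8 knock-in allele (KI) and in wild-type (WT) cortex. The group comprised the 10 genes Gad1, Gad2, Slc32a1, Pvalb, Sst, Vip, Npy, Cck, Lhx6 and Reln, which were chosen by their known roles in making and transporting GABA or in marking classes of interneurons. The choice was made with earlier results of these data known. All 10 were present among the 13661 genes of the authors' deposited table, and all 10 had a p-value. The series holds 5 WT and 5 KI libraries of poly(A) RNA, each from the cortex of a male at 8 weeks of age, and the series title describes the knock-in as a duplication of Chd8, a chromatin remodeller gene linked to autism. The labels name the genotypes as Wild-type and Chd8 KI and give no strain, copy number, driver of expression, litter or dissection detail.

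GABA is the main inhibitory transmitter of the cortex. It is made from glutamate by glutamate decarboxylases, loaded into vesicles by a dedicated transporter, and released by interneurons that are born mostly in the medial and caudal ganglionic eminences of the embryo. Adult interneurons are sorted into classes by the calcium-binding protein or peptide they make, and these classes contact different parts of the pyramidal cell. Parvalbumin cells target the soma, somatostatin cells the distal dendrites, and Vip cells largely other interneurons.

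None of the 10 genes passed an adjusted p of 0.05 for a difference between KI and WT cortex, by the test in the authors' deposited table (DESeq2 Wald test with Benjamini-Hochberg adjustment), and none had an unadjusted p under 0.05. Over all 13660 genes tested, 0.0732% passed the first criterion and 3.22% the second. The adjusted p was 0.99986 for each of the 10 genes and the unadjusted p ran from 0.0504 for Pvalb to 0.946 for Vip. Log2 fold changes (KI over WT) lay between -0.15 and 0.13, with 6 negative and 4 positive. Negative values made up 48.4% of all genes tested. The median over the 10 genes was -0.0089, beside 0.0025 over all genes. Depth per library is unknown and no value for each library was analysed here, so no replicate spread, overlap of the groups or left-out library can be given. The labels do not say whether libraries came from separate litters. In whole cortex, a smaller number of cells of a type and less RNA in each cell cannot be told apart.

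**Figure D1:**
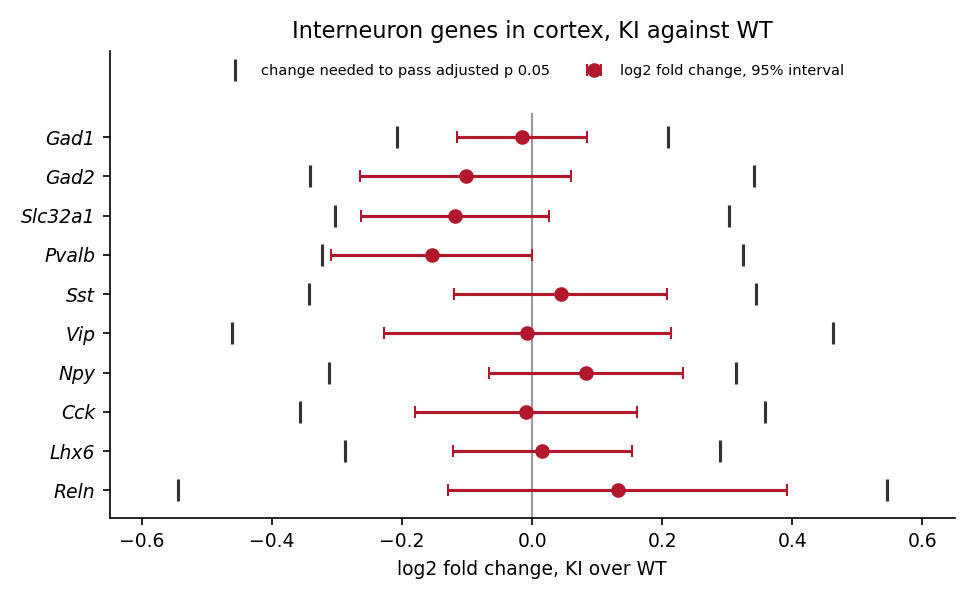
Log2 fold change (KI over WT) of each gene, with its 95% interval as a horizontal bar and, as vertical ticks, the change that its standard error would have needed to pass an adjusted p of 0.05. Every interval lies inside its pair of ticks, and that of Pvalb comes closest, with a lower bound of -0.31 against a tick at -0.32.

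The 95% interval of every one of the 10 genes lay within ±0.5 on the log2 scale, as it did for 88.5% of all genes tested, and each of the 10 intervals included 0. The widest was that of Reln, from -0.13 to 0.39, and the narrowest that of Gad1, from -0.12 to 0.084. A gene of this table needed a Wald score (log2 fold change over its standard error) of 4.11 to be an additional call. With their standard errors, the 10 genes would therefore have needed changes between 0.21 for Gad1 and 0.55 for Reln on the log2 scale. A change in Reln of the size measured for Chd8, 0.49, would not have passed, whereas it would have passed in each of the other 9 genes. Chd8 itself stood at a ratio of KI to WT of 1.40 (95% interval 1.22 to 1.61, adjusted p = 0.0044, DESeq2 Wald test) in the authors' deposited table. The file names no direction for its fold changes, and the sign of Chd8 was used to set it, so that positive values mean more RNA in KI.

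The promoters of the 4 peptide genes are shown because transcription of Sst and Vip is a textbook case of control by cyclic AMP through the factor CREB, which binds the cyclic AMP response element (CRE). The sequences come from the 100 bases before the start site listed for each gene in a RefSeq promoter table on GRCm38.p6, read 5′ to 3′ on the strand of the gene. The RefSeq gene spans given below reach past some of these start sites. All 100 bases of Sst and 25 of those of Vip lie inside the span, so 30 bases around the CRE are printed for Sst and the 75 bases outside the span for Vip. Capitals mark the CRE core TGACG, or CGTCA where it lies on the other strand. The 2 cores of Sst overlap and form the palindrome TGACGTCA.
Sst (chr16:23890874-23890903, minus strand): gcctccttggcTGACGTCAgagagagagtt
Vip (chr10:5639118-5639192, plus strand): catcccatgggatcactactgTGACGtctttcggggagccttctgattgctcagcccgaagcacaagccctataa
Cck (chr9:121495695-121495794, minus strand): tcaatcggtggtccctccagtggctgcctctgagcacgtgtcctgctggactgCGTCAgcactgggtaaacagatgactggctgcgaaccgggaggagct
Npy (chr6:49822610-49822709, plus strand): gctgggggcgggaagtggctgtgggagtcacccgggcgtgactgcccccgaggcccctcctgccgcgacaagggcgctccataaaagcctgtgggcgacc

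The full palindrome began 48 bases before the listed start of Sst, the core 79 bases before that of Vip and 47 bases before that of Cck. No core was found within the 250 bases before the start of Npy. Among the 10 genes, all of which matched the promoter table with 13 start sites in all, the core was also found in Gad2, 33 bases before its start. Of the 32851 windows of 250 bases in that table, 17.8% hold the core on either strand and 1.55% hold the palindrome, which contains the core. The TATA box letters TATAAA, searched on both strands, were found in Vip, nearest at 30 bases before the start, and in 12.4% of all windows. In Gad1 they were found on the strand opposite to the gene, from 141 to 136 bases before the start. A match describes the letters of the window and is not a measured site.

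The genes for making and loading GABA had negative log2 fold changes and did not pass the test. Gad1, on chromosome 2 from 70561303 to 70602014, encodes the larger decarboxylase, GAD67, which makes most of the GABA of the brain. Its mean normalised count over all libraries was 8387 and its ratio of KI to WT was 0.989 (95% interval 0.923 to 1.06, unadjusted p = 0.757) in the authors' deposited table. Gad2, on chromosome 2 from 22621015 to 22693877, encodes GAD65, the decarboxylase found mainly at nerve terminals. The authors' deposited table gave it a mean normalised count of 4973 and a ratio of 0.931 (0.832 to 1.04, unadjusted p = 0.217). Slc32a1, on chromosome 2 from 158607260 to 158615747, encodes the vesicular GABA transporter VGAT. Its mean normalised count was 3385 and its ratio 0.921 (0.833 to 1.02, unadjusted p = 0.109) in the authors' deposited table. The intervals of these 3 genes overlap each other, and differences between genes were not tested because the covariance of their values is not in the table. In GENCODE M21 the antisense gene Gm14205 shares 697 of the 2797 exon bases of Slc32a1 (24.9%). Whether reads were counted by strand is not stated in the labels, so whether the count of Slc32a1 includes reads of Gm14205 is not known.

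GABA neurons also make up most of the striatum, which adjoins the cortex, and its markers were measured beside these genes. All 12 striatum markers were present, with mean normalised counts from 262 to 7349 and none at 0. All 12 had a negative log2 fold change, from -0.15 to -0.043 with a median of -0.075, and none passed an adjusted or unadjusted p of 0.05 (DESeq2 Wald test). The authors' deposited table gave the smallest p to Drd1, encoding a dopamine receptor, at -0.14 (standard error 0.10), to Ppp1r1b, encoding the signalling protein DARPP-32, at -0.091 (0.077) and to the opioid precursor gene Penk at -0.14 (0.12). Of 11 tested thalamus markers 9 were negative (median -0.48), and 4 passed an adjusted p of 0.05, all lower in KI. These were Tnnt1 at -1.34, Prkcd at -1.20, Tcf7l2 at -0.92 and Ramp3 at -0.40 in the authors' deposited table. The striatum and thalamus lists were chosen with earlier results of these data known, so their counts and medians are not independent of these values. The part of either tissue in the values of the 10 interneuron genes was not tested. Group levels are not listed, but with groups of equal size they follow approximately from the mean over all libraries and the ratio. Computed so, without an error, the summed level of the striatum markers was 33267 in WT and 31448 in KI, and that of the thalamus markers 4116 and 2934. The summed level of the 10 interneuron genes was 31461 in WT and 30990 in KI.

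Of the 10 genes, Pvalb had the lowest log2 fold change, although other genes of interneuron classes described below stood lower. Pvalb, on chromosome 15 from 78191112 to 78206400, encodes parvalbumin, the calcium buffer of fast-spiking basket and chandelier cells. Its mean normalised count was 767 and its ratio of KI to WT was 0.899 (95% interval 0.807 to 1.0002, log2 fold change -0.15, standard error 0.079) in the authors' deposited table. Its unadjusted p of 0.0504 ranked 444 among 13660 genes, and a fall to 0.799 of WT would have been needed for a call. With the median of all genes subtracted the unadjusted p was 0.0468, and with scores scaled to their robust spread over all genes it was 0.0221. The scaling was added after seeing the data and lowers the p of every gene. With the trend along transcript length removed the unadjusted p of Pvalb was 0.142, and with the trend along mean normalised count removed it was 0.0506. The adjusted p did not pass in any of these.

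Of 12 other genes enriched in parvalbumin cells, 5 had a positive and 7 a negative log2 fold change (median -0.0046), and none passed an adjusted or unadjusted p of 0.05. The smallest p-values in the authors' deposited table belonged to the receptor gene Gpr176, whose log2 fold change was 0.15 (standard error 0.088), Syt2, the calcium sensor of fast release at parvalbumin terminals, at -0.15 (0.10), and the potassium channel subunit Kcns3 at -0.19 (0.14). The sign of Pvalb was thus shared by Syt2 and Kcns3 and not by Gpr176. The perineuronal net, the extracellular matrix that wraps many parvalbumin cells, had 6 of 8 tested genes positive (median 0.027, none at an unadjusted p under 0.05). Among these the authors' deposited table gave 0.098 (0.086) for the link protein Hapln1, which was also listed with the parvalbumin and neurogliaform genes, 0.11 (0.11) for versican (Vcan) and 0.063 (0.088) for tenascin-R (Tnr).

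Sst and Npy had positive values that did not pass the test. Sst, on chromosome 16 from 23889573 to 23891342, encodes somatostatin, the inhibitory peptide of dendrite-targeting cells, and is the gene with the full CRE palindrome printed above. Its mean normalised count was 3787 and its ratio 1.03 (95% interval 0.920 to 1.16, unadjusted p = 0.599) in the authors' deposited table. Npy, on chromosome 6 from 49822710 to 49829507, encodes neuropeptide Y, made by neurogliaform cells and by part of the somatostatin cells. The authors' deposited table gave it a mean normalised count of 1056 and a ratio of 1.06 (0.955 to 1.18, unadjusted p = 0.274).

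Of 11 tested other genes of somatostatin cells, 4 were positive and 7 negative (median log2 fold change -0.019), with none at an unadjusted p under 0.05. Those with the smallest p in the authors' deposited table were the vesicle priming gene Unc13c at -0.15 (standard error 0.091) and the somatostatin-related peptide gene Cort (cortistatin) at 0.18 (0.13). Chodl, a marker of long-range somatostatin cells, was not among the genes tested. Lamp5 and the other genes of neurogliaform, layer 1 and Cck basket cells were 8 positive and 4 negative (median 0.010, none at an unadjusted p under 0.05). Lamp5 stood at -0.054 (0.047) and Lsp1 at -0.15 (0.19) in the authors' deposited table.

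Vip and Cck had log2 fold changes near 0. Vip, on chromosome 10 from 5639193 to 5647617, encodes vasoactive intestinal peptide and marks cells that largely inhibit other interneurons. Its mean normalised count was 713 and its ratio 0.995 (95% interval 0.854 to 1.16, unadjusted p = 0.946) in the authors' deposited table. Cck, on chromosome 9 from 121489824 to 121495694, encodes cholecystokinin, which is made by a class of basket cells and also by many pyramidal cells, so in whole cortex it is not an interneuron gene alone. The authors' deposited table gave it a mean normalised count of 5568 and a ratio of 0.993 (0.882 to 1.12, unadjusted p = 0.908). Both values turned positive when the trend along transcript length was removed, at 0.0018 for Vip and 0.034 for Cck.

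Of 11 tested other genes of Vip cells, 6 were positive and 5 negative (median log2 fold change 0.0014). This list held 2 of the 3 genes of the interneuron-related lists with an unadjusted p under 0.05, both with an adjusted p of 0.99986. Tac2, the precursor of neurokinin B, had a mean normalised count of 114 and stood at 0.34 (standard error 0.15, unadjusted p = 0.0185), and Crh, encoding corticotropin-releasing hormone, had a mean of 139 and stood at -0.29 (0.15, unadjusted p = 0.0486) in the authors' deposited table. These 2 peptide genes thus lay on opposite sides of 0. Npas1, a transcription factor gene, stood at 0.14 (0.11) in the authors' deposited table.

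Lhx6 and Reln were the remaining genes. Lhx6, on chromosome 2 from 36081950 to 36105992, encodes the LIM homeodomain factor that parvalbumin and somatostatin cells keep from their origin in the medial ganglionic eminence. It had the lowest mean normalised count of the 10, 448, and a ratio of 1.01 (95% interval 0.919 to 1.11, unadjusted p = 0.827) in the authors' deposited table. Lhx6 thus stood close to 1 while Pvalb stood at 0.899 and Sst at 1.03, with intervals that all overlap. Reln, on chromosome 5 from 21884454 to 22344705, encodes reelin, the secreted glycoprotein that directs neuronal layering in the embryo and is made in the adult by layer 1, neurogliaform and part of the somatostatin cells. The authors' deposited table gave it a mean normalised count of 2142 and a ratio of 1.10 (0.915 to 1.31, unadjusted p = 0.323).

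Other transcription factors of interneurons were 9 positive and 10 negative of 19 tested (median log2 fold change -0.047), and none had an unadjusted p under 0.05. Dlx1, a homeobox gene of forebrain GABA neurons, stood at -0.19 (standard error 0.12), the non-coding RNA Dlx6os1 at -0.14 (0.10) and Npas3 at 0.14 (0.11) in the authors' deposited table. Nkx2-1 and Lhx8, which act earlier in the medial eminence lineage, were not among the genes tested. Reelin pathway genes were 4 positive and 8 negative of 12 (median -0.011, none at an unadjusted p under 0.05). Beside receptors and adaptors, this list held kinase, integrin and ephrin genes. The intracellular adaptor Dab1 stood at 0.056 (0.057), the adaptor Crkl at -0.091 (0.063) and Efnb1 at -0.15 (0.11) in the authors' deposited table.

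Genes that act on the released transmitters were examined next. Receptors for the 4 peptides, with Adcyap1r1, which encodes the receptor of the Vip-related peptide PACAP and stood at 0.011 (standard error 0.047), were 7 positive and 3 negative of 10 tested (median log2 fold change 0.050, none at an unadjusted p under 0.05, values from the authors' deposited table). The somatostatin receptor gene Sstr4 stood at 0.19 (0.11), the neuropeptide Y receptor gene Npy5r at -0.24 (0.15) and Cckbr, encoding the main cholecystokinin receptor of brain, at 0.071 (0.060) in the authors' deposited table. GABA uptake and breakdown genes were 2 positive and 3 negative of 5 tested (median -0.027). Slc6a11, encoding the astrocytic GABA transporter GAT3, had an unadjusted p of 0.0406 at -0.13 (0.063) and an adjusted p of 0.99986, again in the authors' deposited table. The transporter gene Slc6a13, also a marker of meningeal fibroblasts, stood at -0.27 (0.17) and the GABA transaminase gene Abat at -0.027 (0.045) in the authors' deposited table.

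Together, the 9 interneuron-related lists held 97 distinct tested genes beside the 10, of 106 listed. Of these 49 were positive and 48 negative, with a median log2 fold change of 8.1e-05. None passed an adjusted p of 0.05, and 3 (3.09%) had an unadjusted p under 0.05, close to the 3.22% of all genes tested.

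**Figure D2:**
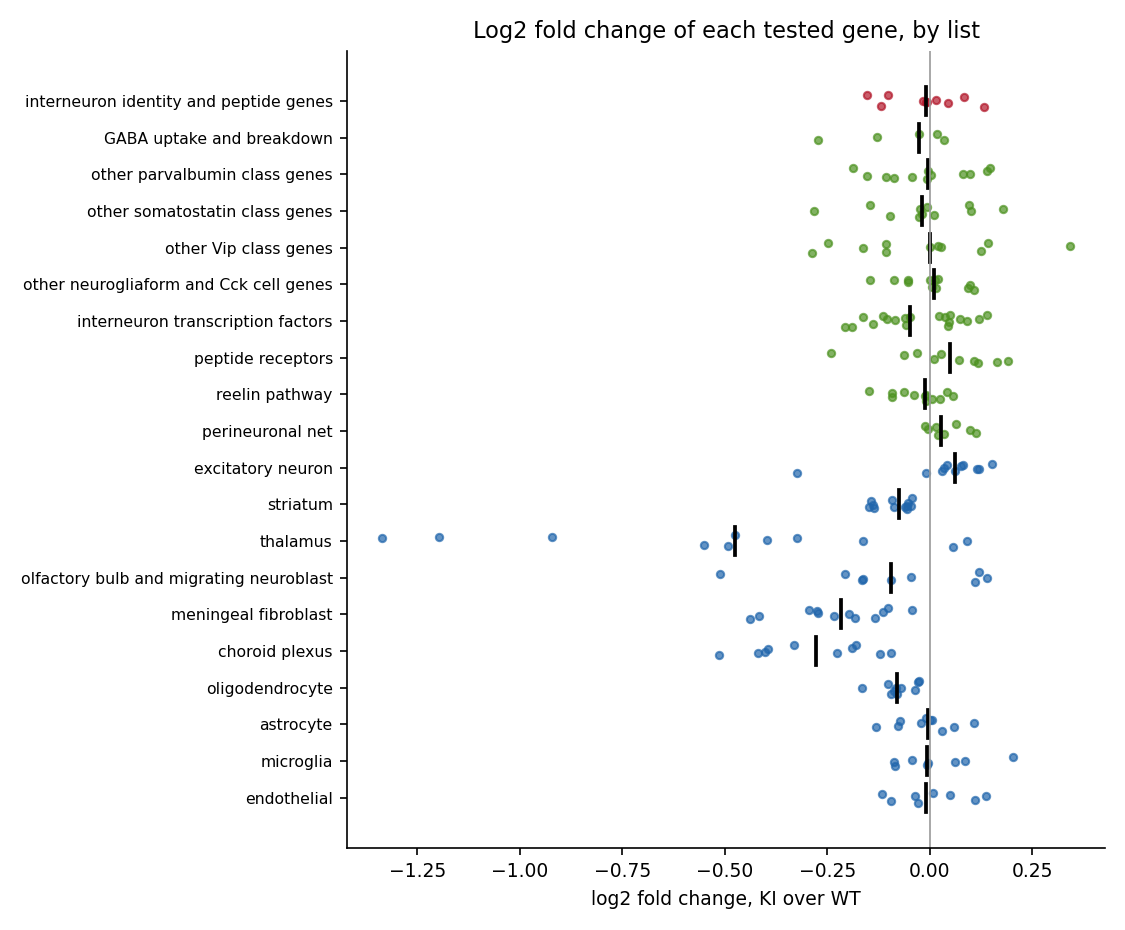
Log2 fold change (KI over WT) of each tested gene by list, with a black bar at the list median. The 10 interneuron genes (red) and related lists (green) have medians between -0.047 and 0.050, whereas the marker lists of other cells and tissues (blue) reach a median of -0.48 for thalamus. All lists were chosen with earlier results of these data known.

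Markers of the other cells of the tissue were measured for comparison. Their lists, too, were chosen with earlier results of these data known. Of 11 excitatory neuron markers 9 were positive (median log2 fold change 0.062), and of the 2 at an unadjusted p under 0.05, Camk2a stood at 0.12 and Slc17a6, which is also a thalamus marker and had the smallest p of the list, at -0.32 in the authors' deposited table. All 12 meningeal markers were negative (median -0.22), 4 of them at an unadjusted p under 0.05. All 10 choroid plexus markers (median -0.28) and all 10 oligodendrocyte markers (median -0.081) were negative too, with 6 and 2 at an unadjusted p under 0.05, beside 3.22% of all genes tested. Astrocyte, microglia and endothelial medians lay between -0.010 and -0.0038. An unadjusted p under 0.05 was found for 1 astrocyte gene, Aldh1l1, at -0.13 in the authors' deposited table, and for no microglia or endothelial gene. Olfactory bulb and migrating neuroblast markers, which include GABA neurons, were 3 positive and 6 negative (median -0.094). Among these lists 1 gene passed an adjusted p of 0.05, Igf2 of the meninges, at -0.29 in the authors' deposited table.

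**Figure D3:**
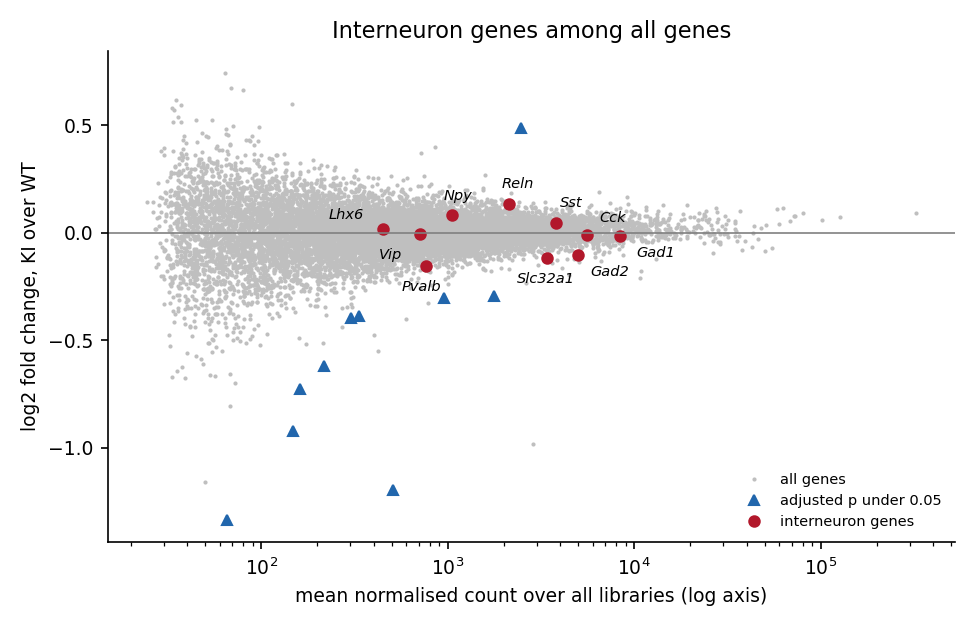
Log2 fold change (KI over WT) against the mean normalised count (log axis) of every gene (grey), with the 10 genes at an adjusted p under 0.05 as triangles and the interneuron genes as circles. The interneuron genes lie between -0.15 and 0.13, and each of the triangles lies farther from 0.

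Per length, the 10 genes spanned a 54.1-fold range of level. The level was taken as the mean normalised count over all libraries per kilobase of the longest GENCODE M21 transcript, a scale on which genes can be compared. Cck stood first at 6969 per kilobase, followed by Sst at 5252, Gad1 at 2329 and Npy at 1866. These 4 genes lay above 96.0% or more of all genes with a known length. Slc32a1 at 1210, Gad2 at 866 and Pvalb at 785 formed the middle, and Vip at 282, Reln at 183 and Lhx6 at 129 the lower end. Lhx6, the transcription factor, lay above 41.9% of genes. The spread over libraries is not known for these levels, so neighbours in this order cannot be tested against it.

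**Figure D4:**
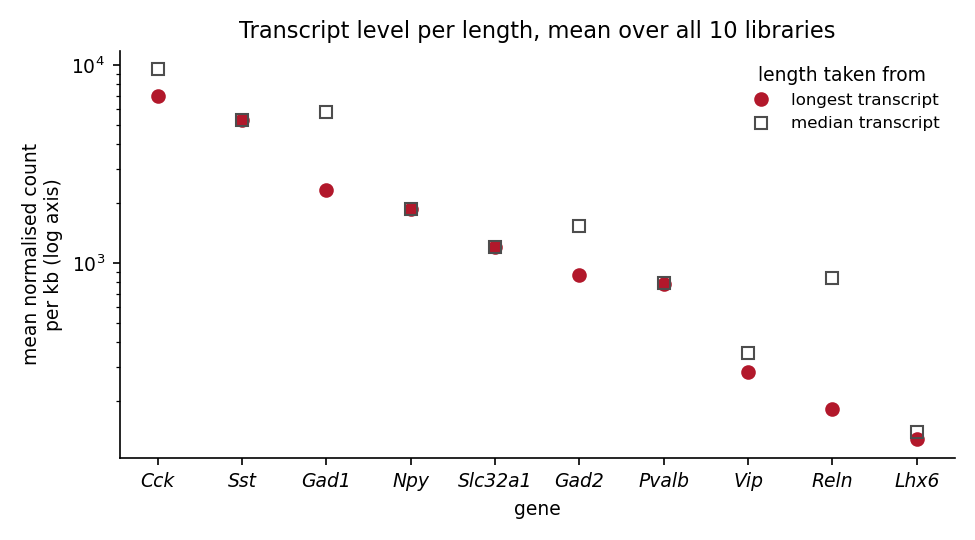
Mean normalised count per kilobase (log axis) of each gene over all 10 libraries, with the length taken from the longest transcript (circles) or the median transcript (squares). Cck is first and Lhx6 last on both lengths, and Gad1 and Reln move most because their annotated transcripts differ most in length.

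The order depended in part on the transcript used. With the median transcript length Cck remained first and Lhx6 last, Gad1 (5780 per kilobase) moved ahead of Sst, Gad2 (1538) ahead of Slc32a1, and Reln (838) ahead of Pvalb and Vip. Which transcripts these cortices used was not measured.

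The precision behind these values differed between the genes. Standard errors of the log2 fold change in the authors' deposited table ran from 0.051 for Gad1 to 0.13 for Reln, with a median of 0.081 over the 10 genes beside 0.089 over all genes tested. Reln was thus the least precise of the 10, although its mean normalised count of 2142 exceeded those of Npy, Pvalb, Vip and Lhx6. Lhx6, the least abundant by count, had a standard error of 0.070.

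**Figure D5:**
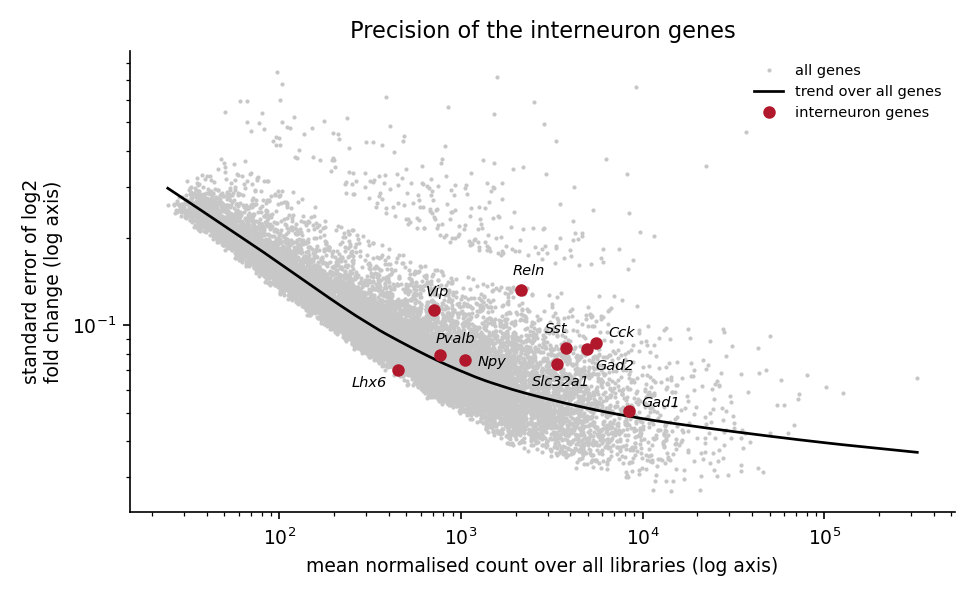
Standard error of the log2 fold change against the mean normalised count (both log axes) for every gene (grey), the trend over all genes (line) and the interneuron genes (red). Reln lies farthest above the trend, at 2.25 times its value, and Lhx6 lies below it.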

How the data were processed

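RNA was sequenced from the cortex of 5 WT and 5 KI males. Per the submitters' processing notes, the tools were Trimmomatic 0.39, HISAT2 2.1.0, featureCounts 2.0.0 and DESeq2 1.26.0, on mm10. For the annotation, strand use, filters and model formula, no information was given in the sources used here. The authors' deposited table holds, per gene, the mean of normalised counts over all libraries (a signal scaled by the authors), the deposited log2 fold change, its standard error and Wald score as deposited scores, and the deposited p-value and adjusted p-value. The adjusted values equal a Benjamini-Hochberg adjustment over 13660 genes within 1e-06, and the lowest mean count is 24.4. The DESeq2 test is the authors'.

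Computed here, with Python 3.11.15, scipy 1.17.1 and statsmodels 0.14.6, were 95% normal intervals, levels per kilobase, recomputed adjusted p-values, and lowess trends (span 0.3) along transcript length or mean count. Symbols came from RefSeq on GRCm38, the assembly behind mm10, for 13497 gene numbers, leaving 164 without a symbol, and lengths from GENCODE M21 for 13098 tested genes. The calculations were tested on simulated data drawn with the deposited standard errors. That checks the code and cannot show whether those standard errors hold for these libraries. The genes and lists were chosen with earlier results of these data known. Named genes are all 10 members, the 3 genes with the smallest p in each list or part of them, any past the threshold, genes of the lists absent from the table, and Chd8. Groups came from sample titles. Count minimums of 50 and 200, thresholds of 0.1 and 0.01 and other centrings were the alternatives. Genes most like a member across libraries are not named, since that needs values for each library.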

Additional observations from a re-analysis of the deposited data

How the results depend on the processing

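No paired analysis was possible because the table analysed here gives 1 result per gene over all libraries, and leaving out libraries was not run for the same reason. The count of interneuron genes past the adjusted threshold was 0 throughout, at thresholds of 0.1 and 0.01, count minimums of 50 and 200, without neighbouring-tissue genes, and with rescaled scores. Since the adjusted p was 0.99986 for each gene (DESeq2 Wald test), the thresholds of 0.1 and 0.01 could not have changed this count. The count at an unadjusted p under 0.05 went from 0 to 1, Pvalb, with the median of all genes subtracted and with scores divided by their robust spread of 0.855. Division by a spread below 1 lowers the p of every gene. The share of 3.22% of all genes holds for the unaltered values, and shares under these 2 alternatives are not given here. The count of 1 therefore has no share to be set against. Both counts were added after seeing the data, as was the scaling itself, whereas the centring was planned for the log2 fold changes. Removing the trend along transcript length turned Vip to 0.0018, Cck to 0.034 and the median of the 10 genes to 0.0086, leaving 4 genes negative, and the cause was not tested. The negative share and median over all genes after this removal are not given here, and those given above hold for the unaltered values. With the median transcript length, Gad1 ranked 2, Sst 3, Gad2 5, Slc32a1 6, Reln 7, Pvalb 8 and Vip 9 by level. Depth per library is unknown, so its part in the precision was not tested.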

Other observations

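The standard errors of the interneuron genes were in part larger than is usual at their abundance in the authors' deposited table. Against a trend of the standard error along the mean normalised count over all genes, 9 of the 10 lay above, as did 48.4% of all genes, and 1, Lhx6, below. Of these 9, Gad1 and Pvalb were close to the trend. The standard error of Reln was 2.25 times the trend, higher relative to it than in 98.1% of all genes. Cck stood at 1.70 times the trend, Gad2 at 1.60, Sst at 1.55 and Vip at 1.47, each above the 90th percentile of all genes. Slc32a1 stood at 1.35, Npy at 1.11, Pvalb at 1.05, Gad1 at 1.04 and Lhx6 at 0.791, so Gad1 and Gad2, which serve the same reaction, differed in this ratio. The standard error comes from a dispersion fitted over both groups, so it does not show which library or group was the more variable. What the larger standard errors stem from was not tested.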
